A study of Mus musculus with 16 samples.

Results

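Transcripts of p53 and of 9 of its targets were followed in hind limb (femoral) skin of 16 mice, to compare their levels between mice exposed to the space environment (ESE) and ground controls. The 10 genes were taken by symbol from the deposited table of 14858 genes: Trp53, Cdkn1a, Mdm2, Ccng1, Gadd45a, Bbc3, Bax, Sesn2, Phlda3 and Trp53inp1. All mice were female BALB/cAnNTac, aged about 10 to 16 weeks, without engineered alleles in the sources used here. The groups were the responder ESE cohort (4 mice, labelled as flight mice of low 5-methylcytosine), the non-responder ESE cohort (6 mice, labelled as flight mice of high 5-methylcytosine) and ground controls (6 mice housed in similar habitats on the ground). The study divided the flight mice by the global 5-methylcytosine content of their skin, measured by ELISA, and 1 library was made per mouse. By the study's sample list, mice belonged to a live animal return (LAR) arm, whose flown mice were killed after landing and a short recovery, or to an ISS arm, whose flown mice were killed on orbit after a shorter flight. The LAR arm held 2 responders, 3 non-responders and ground control replicates 4 to 6, and the ISS arm held 2 responders, 3 non-responders and ground control replicates 1 to 3.

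The p53 protein is a transcription factor held at low abundance by Mdm2 and stabilised after DNA damage and other stress. Much of its regulation is at the level of the protein, so the mRNA of Trp53 itself is not a readout of p53 activity, and its targets are usually read instead. These targets stop the cell cycle, promote death of damaged cells, adjust metabolism or feed back on p53. In skin, p53 is best known for the response of keratinocytes to ultraviolet light and for its role in pigmentation and the hair cycle.

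The response element of p53 is built from half-sites of 10 bases, each with a C and a G that enclose a pair of A or T bases, flanked by purines on one side and pyrimidines on the other. RefSeq promoter windows (GRCm38.p6, 250 bases before to 50 after the start) were found for 9 of the 10 genes. Cdkn1a had 2 windows and Bbc3 had 3, and the sites of Cdkn1a lay in 1 of its 2 windows. An exact p53 half-site lay in a window of 6 of these 9 genes, against 9.55% of the 27025 genes with a window (8.36% of 32851 windows). The consensus reads the same on both strands, so either strand gives the same matches. With 2 half-sites 0 to 13 bases apart, the C and the G of both cores in place and at most 2 mismatches in all (also allowed between that C and G), 4 of the 9 genes held a full site, against 4.71% of genes. The sites are shown because they tell the targets with a p53 motif in a window of an annotated start from those without one in these windows. Each of these 4 genes held 2 full sites that share a half-site, of which the more closely spaced is shown. The other one of Cdkn1a joins 2 exact half-sites 12 bases apart, with 0 mismatches (chr17:29090906-29090937). The sites are written from 5′ to 3′ on the strand of the gene, with the 4 core positions of each half-site in capitals, for Cdkn1a (chr17:29090928-29090947, plus strand, 1 mismatch), Ccng1 (chr11:40755462-40755481, minus strand, 1 mismatch), Gadd45a (chr6:67037438-67037463, minus strand, 2 mismatches), Bax (chr7:45467079-45467099, minus strand, 2 mismatches), and as exact half-sites for Mdm2 (chr10:117710935-117710944, minus strand) and Trp53 (chr11:69580284-69580293, plus strand).
Cdkn1a: gaaCATGtcttgaCATGttc
Ccng1: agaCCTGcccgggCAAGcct
Gadd45a: ggaCCTGgttggctgagggCTAGccc
Bax: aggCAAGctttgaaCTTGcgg
Mdm2: gaaCTTGcct
Trp53: ggaCTTGccc
These are matches of letters and were not tested for binding. The windows of Bbc3, Sesn2 and Phlda3 held no exact half-site.

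Libraries held 4159342 to 22593931 counts, and all 10 genes passed the filter on low counts in every comparison. The RNA was of low integrity in all groups, with an RNA integrity number of 1.5 to 2.1 in responders, 1.2 to 1.9 in non-responders and 1.8 to 2.7 in ground controls. Reads of rRNA made up 13.3% to 57.3% of a library, and 3 libraries stood apart: non-responder replicate 1 (57.3%), ground control replicate 3 (46.7%) and ground control replicate 4 (39.6%). Ground control replicate 6 had a summed level of 62811 CPM (counts per 1000000 counts of a library) over 12 skeletal muscle markers, against 8.69 to 5760 CPM in the other libraries. Responder replicate 1 had 2034 CPM over 5 measured hepatocyte markers, against 0.649 to 107 CPM in the others. Keratinocyte markers, which define skin, summed to 3352 to 20236 CPM, so every library held them.

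Per kilobase of transcript, Cdkn1a was the most abundant of the 10 genes, with a median of 42.03 CPM per kilobase over the 16 libraries (range 20.7 to 94.5). Mdm2 followed at 20.3 CPM per kilobase, and Cdkn1a was above Mdm2 in 16 of 16 libraries. Mdm2 was above Sesn2, the next gene, in 10 of 16, so its place was not separated from that of Sesn2. Sesn2 (14.03 CPM per kilobase), Phlda3 (12.4), Trp53 (12.3), Bax (10.2) and Gadd45a (8.67) came next. Neighbours among these 5 were not separated in their order: Sesn2 was above Phlda3 in 7 of 16 libraries, Phlda3 above Trp53 in 9, and Trp53 above Bax in 10. Trp53inp1 (3.11 CPM per kilobase) and Ccng1 (2.55) were lower, with Trp53inp1 above Ccng1 in 10 of 16 libraries, and Bbc3 was lowest at 0.594 CPM per kilobase, below Ccng1 in 16 of 16 libraries. Bbc3 rested on 2 to 37 counts per library, so its values carry the widest counting error.

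The spread between libraries also differed between the genes. Trp53 varied least, with a coefficient of variation of 21.7% over the 16 libraries, and Bax was close at 24.1%. Cdkn1a (38.9%), Mdm2 (41.1%), Phlda3 (42.97%), Trp53inp1 (46.8%) and Bbc3 (57.3%) lay between. Sesn2 (77.6%), Gadd45a (94.0%) and Ccng1 (207%) varied most, and for each of them the high values came from a few libraries.

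**Figure D1:**
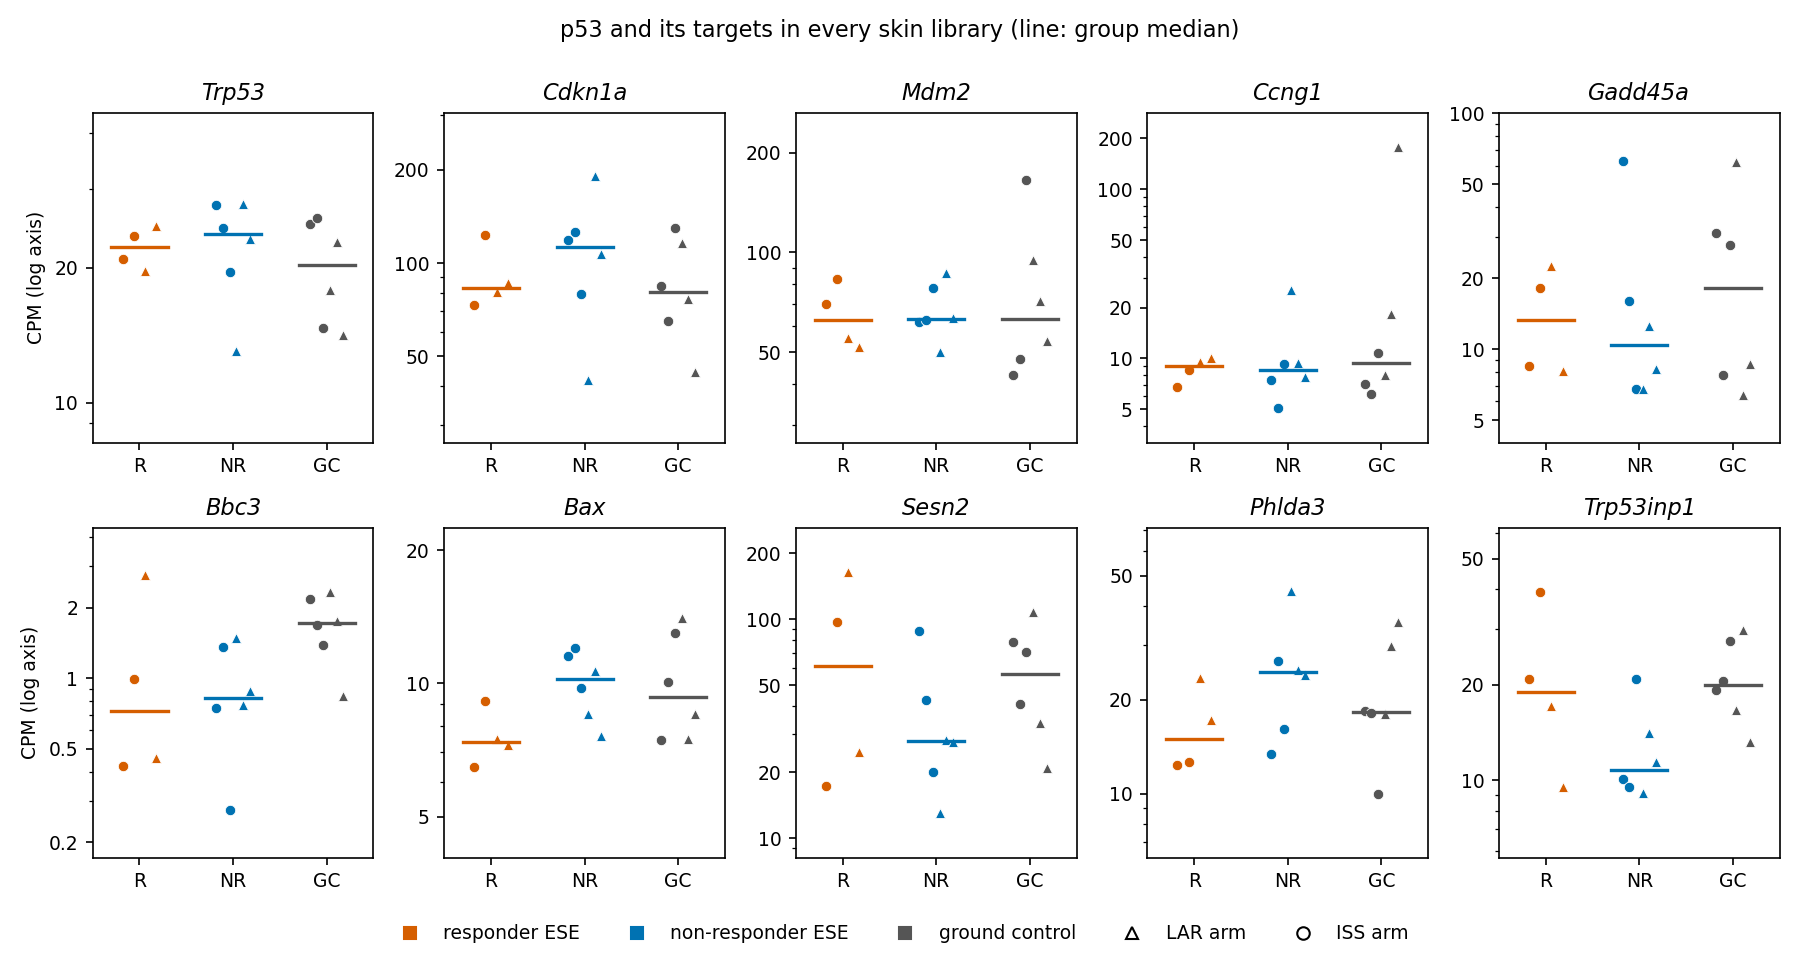
CPM (log axis) of the 10 genes in responders (R, 4 mice), non-responders (NR, 6 mice) and ground controls (GC, 6 mice), 1 point per mouse, with the group median as a line and the mission arm as the symbol. The groups overlap for every gene, and the single high Ccng1 point is ground control replicate 6 at 178 CPM.

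Between the whole ESE group and the ground controls, none of the 10 genes passed the test. Their log2 fold changes had a median of -0.21, with 2 genes above 0 and 8 below, beside a median of -0.04 and 45.4% above 0 over the 13577 genes tested. At an adjusted p under 0.05 (edgeR's quasi-likelihood test), 0 of 10 members and 0 of all genes (0% of 13577) were called. At an unadjusted p under 0.05, 1 of 10 members (Ccng1, lower) stood out, where 7.86% of all genes did so in either direction and 4.8% were lower. DESeq2 and the likelihood ratio test also called 0 of the 10, but DESeq2 gave no p for Ccng1 here.

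Trp53 was at 13.04, 23.4 and 27.7 CPM in the ESE group (lowest, median, highest) and at 14.2, 20.3 and 25.8 CPM in ground controls. The groups covered nearly the same range. Flown mice differed from controls by 0.16 on the log2 scale (SE 0.18, 95% interval -0.22 to 0.54, adjusted p = 0.758). Without the 3 libraries richest in rRNA it was -0.0057, so Trp53 has no settled direction. Mdm2, the ubiquitin ligase that marks p53 for degradation and is itself a target, was at 49.96, 62.9 and 86.8 CPM in the ESE group and at 42.5, 62.7 and 165 CPM in ground controls. Its medians were almost equal, and ground control replicate 3, an rRNA-rich library, held the highest value. Its log2 fold change was -0.26 (SE 0.25, 95% interval -0.78 to 0.27, adjusted p = 0.719), and 0.10 without that 1 library.

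Cdkn1a, which encodes the cyclin-dependent kinase inhibitor p21 and is the most used readout of p53, was at 42.02, 96.5 and 191 CPM in the ESE group and at 44.6, 80.5 and 130 CPM in ground controls. Its highest value, in non-responder replicate 5, and its lowest, in non-responder replicate 4, both belonged to ESE mice of the LAR arm. On the log2 scale the ESE group differed by 0.26 (SE 0.28, 95% interval -0.34 to 0.85, adjusted p = 0.746). Within the arms it was 0.37 (SE 0.42) in LAR mice and 0.16 (SE 0.42) in ISS mice, and the difference of these effects was 0.21 (SE 0.59, adjusted p = 0.999).

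Ccng1 encodes cyclin G1, a target that recruits protein phosphatase 2A and takes part in feedback through Mdm2. It was at 5.07, 8.88 and 25.3 CPM in the ESE group and at 6.13, 9.38 and 178 CPM in ground controls. The medians hardly differed, and 1 library, ground control replicate 6, stood far above the other 15. Ccng1 had the lowest unadjusted p of the 10 genes, at a log2 fold change of -1.94 (SE 0.65, adjusted p = 0.624). Without ground control replicate 6 it was -0.01 (SE 0.35, adjusted p = 0.991). That library was also the one rich in skeletal muscle markers, and none of the 12 markers was at 0 throughout either group. Its 62811 CPM of muscle markers stood beside ESE sums of 8.69 to 4980 CPM and sums of 10.1 to 5760 CPM in the other ground controls, and the part of muscle RNA in its Ccng1 level was not tested. In bulk skin, fewer cells of a type and less RNA per cell cannot be told apart.

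Gadd45a, a stress protein that binds PCNA and p21, was at 6.77, 10.5 and 62.9 CPM in the ESE group and at 6.41, 18.2 and 62.1 CPM in ground controls. Non-responder replicate 1 and ground control replicate 4 held the high values of their groups, and both are rRNA-rich libraries. The estimated difference was -0.51 on the log2 scale (SE 0.57, adjusted p = 0.751), and 0.044 without ground control replicate 4. Gadd45a, of 1224 bases, shares 238 exon bases with the gene E230016M11Rik on the other strand. The strand setting of the counting is not given in the sources used here, so reads of the pair cannot be told apart in that stretch.

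Among the genes of cell death, Bbc3 (PUMA, a BH3-only activator of apoptosis) was at 0.275, 0.826 and 2.75 CPM in the ESE group and at 0.837, 1.72 and 2.34 CPM in ground controls. Of the 10 ESE mice, 5 lay below the lowest ground control, and responder replicate 3 lay above the highest. Its log2 fold change was -0.72 (SE 0.43, adjusted p = 0.632), and it stayed below 0 in each alternative that kept the gene, from -1.03 to -0.59. Bax, which opens the outer mitochondrial membrane during apoptosis, was at 6.47, 8.82 and 12.03 CPM in the ESE group and at 7.44, 9.31 and 14.1 CPM in ground controls. Its log2 fold change was -0.15 with a narrow interval (SE 0.19, 95% interval -0.56 to 0.25, adjusted p = 0.783). Phlda3, a pleckstrin homology protein that competes with Akt for membrane lipids, was at 12.3, 20.3 and 44.5 CPM in the ESE group and at 9.97, 18.2 and 35.5 CPM in ground controls. Its log2 fold change was -0.01 (SE 0.30, 95% interval -0.65 to 0.63, adjusted p = 0.992). Trp53inp1, a nuclear stress protein that favours the pro-apoptotic phosphorylation of p53, was at 9.12, 12.7 and 39.1 CPM in the ESE group and at 13.2, 19.9 and 29.7 CPM in ground controls. Its log2 fold change was -0.38 (SE 0.31, adjusted p = 0.676).

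Sesn2 encodes sestrin 2, which restrains mTORC1 when amino acids are scarce and limits oxidative damage. It was at 13.04, 27.7 and 164 CPM in the ESE group and at 20.9, 56.0 and 108 CPM in ground controls. The lowest and the highest library both belonged to ESE mice, so the groups overlapped throughout. A log2 fold change of -0.17 was estimated (SE 0.53, 95% interval -1.30 to 0.96, adjusted p = 0.914), and 0.087 without ground control replicate 4.

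**Figure D2:**
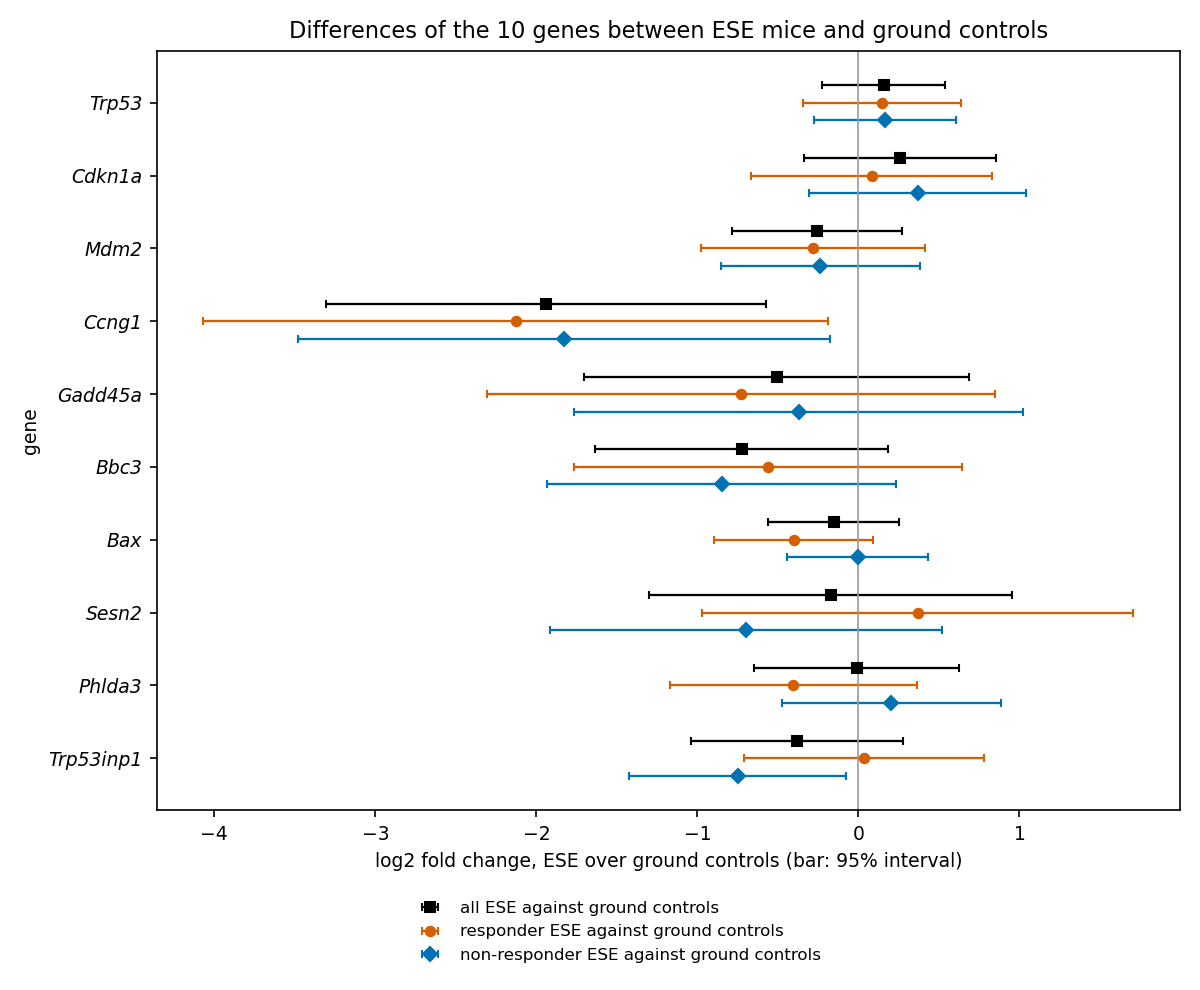
Log2 fold change over ground controls for all ESE mice (squares), responders (circles) and non-responders (diamonds), with 95% intervals. The intervals include 0 except for Ccng1 in each comparison and Trp53inp1 in non-responders, and none of these passed at an adjusted p under 0.05.

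The cohorts were set against each other to see whether the p53 targets followed the division by 5-methylcytosine. In responders against ground controls 1 of 14107 genes (0.00709%) was called and 0 of 10 members were, in non-responders against ground controls 0% of genes and 0 of 10 members, and between the cohorts 0% and 0 of 10. At an unadjusted p under 0.05, Ccng1 was lower in responders against ground controls (1 of 10 members, where 3.42% of all genes passed in either direction), Ccng1 and Trp53inp1 were lower in non-responders against ground controls (2 of 10, where 6.96% passed), and Trp53inp1 was higher in responders against non-responders (1 of 10, where 2.17% passed). DESeq2 and the likelihood ratio test called 0 of the 10 members in these comparisons too, but DESeq2 gave no p for Ccng1 in responders against ground controls. Responders and non-responders were compared with the same ground controls.

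Between the cohorts, Trp53inp1 had the lowest unadjusted p of the 10 genes. It was at 20.9, 39.1, 17.1 and 9.53 CPM in responder replicates 1 to 4, at 9.12, 10.7 and 20.9 CPM in non-responders (lowest, median, highest) and at 13.2, 19.9 and 29.7 CPM in ground controls. In 4 of the 6 non-responders it lay below the lowest ground control. In non-responders against ground controls it was lower by the unadjusted test, as were 4.32% of all genes, with a log2 fold change of -0.75 (SE 0.32, adjusted p = 0.660). It was 0.04 in responders against ground controls (SE 0.35, adjusted p = 0.995). Between responders and non-responders it was 0.79 (SE 0.35, adjusted p = 0.9999), where 1.23% of genes were higher at an unadjusted p under 0.05, and 0.34 (SE 0.33) without responder replicate 2.

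Sesn2 differed more widely but with more spread. It was at 17.3, 97.1, 164 and 24.7 CPM in responder replicates 1 to 4, and at 13.04, 27.7 and 88.3 CPM in non-responders. A high and a low value came from each arm, and the log2 fold change between the cohorts was 1.06 (SE 0.63, 95% interval -0.27 to 2.40). Bax was at 6.47, 9.12, 7.50 and 7.28 CPM in responders and at 7.60, 10.2 and 12.03 CPM in non-responders. Of the 4 responders, 3 lay below every non-responder, and the log2 fold change was -0.40 (SE 0.23, 95% interval -0.89 to 0.09). Phlda3 was at 12.3, 12.6, 23.5 and 17.2 CPM in responders and at 13.4, 24.5 and 44.5 CPM in non-responders, a log2 fold change of -0.61 (SE 0.36), and none of these 3 genes passed an unadjusted p under 0.05.

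Trp53, Mdm2 and Cdkn1a were nearer between the cohorts. Trp53 was at 20.9, 23.6, 19.7 and 24.8 CPM in responders and at 13.04, 23.8 and 27.7 CPM in non-responders, with a log2 fold change of -0.02 (SE 0.23, 95% interval -0.51 to 0.48). Mdm2 differed by -0.05 (SE 0.32) and Cdkn1a by -0.29 (SE 0.36, 95% interval -1.04 to 0.47). Cdkn1a was at 73.1, 124, 80.7 and 86.0 CPM in responders, inside the non-responder range of 42.02 to 191 CPM. Ccng1 was at 6.77, 8.52, 9.58 and 10.0 CPM in responders, near the non-responder median of 8.49 CPM. Against ground controls its log2 fold change was -2.13 in responders (SE 0.91, adjusted p = 0.976) and -1.83 in non-responders (SE 0.78, adjusted p = 0.660), and these were -0.20 and 0.10 without ground control replicate 6.

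The mission arms gave a further comparison, since the flown LAR mice had returned to gravity before death. In none of the 5 arm comparisons was any of the 10 genes called by the quasi-likelihood test, and none of the 14381 genes tested was called either (0% in each). At an unadjusted p under 0.05 the members passed in 0 of 10 cases in ISS ESE mice against ISS controls (2.39% of all genes) and in 1 of 10 in each other comparison. That gene was Ccng1 in LAR ESE mice against LAR controls (9.37% of all genes), in the difference between the arms' ESE effects (4.8%) and in LAR against ISS ground controls (9.07%), and Phlda3 in LAR against ISS ESE mice (5.44%).

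Bbc3 in the ISS arm was the single case, over 10 genes and 8 pairs of groups, in which groups did not overlap. It was at 0.745, 1.36, 0.275, 0.423 and 0.991 CPM in the 5 ESE mice of that arm and at 2.19, 1.69 and 1.38 CPM in its 3 ground controls. All 5 ESE mice lay below all 3 controls, a pattern that 0.862% of the 13577 genes showed in that direction and 1.72% in either. In the other pairs, 0 of 10 members were free of overlap, where the share of all genes was 0.0221% in the ESE group against ground controls, 0.39% in responders and 0.228% in non-responders against ground controls, 0.206% between the cohorts, 3.54% in the LAR arm, 0.523% between the arms' ESE mice and 10.6% between the arms' ground controls. The gap between the groups was small, at 1.36 against 1.38 CPM, on 2 to 23 counts in the ESE mice and 5 to 30 counts in the controls. Its log2 fold change in that arm was -1.23 (SE 0.63, 95% interval -2.57 to 0.11, adjusted p = 0.998). In the LAR arm Bbc3 was at 1.49, 0.767, 0.885, 2.75 and 0.457 CPM in ESE mice and at 2.34, 1.75 and 0.837 CPM in controls, and these groups overlapped. The effects of the arms differed by 0.89 with an SE of 0.90 (adjusted p = 0.999).

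Phlda3 had the higher median in LAR than in ISS mice, in flown mice and in ground controls alike, and neither difference passed at an adjusted p under 0.05. It was at 44.5, 24.97, 24.1, 23.5 and 17.2 CPM in LAR ESE mice and at 13.4, 26.7, 16.1, 12.3 and 12.6 CPM in ISS ESE mice. Ground controls were at 18.0, 29.8 and 35.5 CPM in the LAR arm and at 18.4, 18.1 and 9.97 CPM in the ISS arm. Between the arms the log2 fold change was 0.72 in ESE mice (SE 0.30, adjusted p = 0.877), where 3.96% of genes were higher at an unadjusted p under 0.05. It was 0.44 (SE 0.29) without non-responder replicate 4. In ground controls it was 0.84 (SE 0.39, adjusted p = 0.553). Between flown and ground mice of 1 arm, Phlda3 differed by -0.05 (SE 0.35) in LAR and by 0.06 (SE 0.35) in ISS mice.

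Trp53inp1 had the lower median in LAR than in ISS flown mice, at 9.12, 14.1, 11.4, 17.1 and 9.53 CPM in LAR ESE mice and at 10.1, 9.495, 20.9, 20.9 and 39.1 CPM in ISS ESE mice (log2 fold change -0.72, SE 0.36, adjusted p = 0.925). In ground controls of the LAR against the ISS arm its log2 fold change was -0.17 (SE 0.47). Ccng1 followed ground control replicate 6 in every arm comparison that used it. It was -2.45 in LAR ESE mice against LAR controls (adjusted p = 0.386), 3.11 in LAR against ISS ground controls (adjusted p = 0.489) and -2.36 for the difference between the arms' ESE effects (adjusted p = 0.999). Without that library these values were -0.09, 0.74 and 0.0071. Of the 10 genes Ccng1 alone was called by any other tool, by DESeq2 in LAR against ISS ground controls (adjusted p = 0.0273, with 0.0273 to 0.979 over the settings tried).

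**Figure D3:**
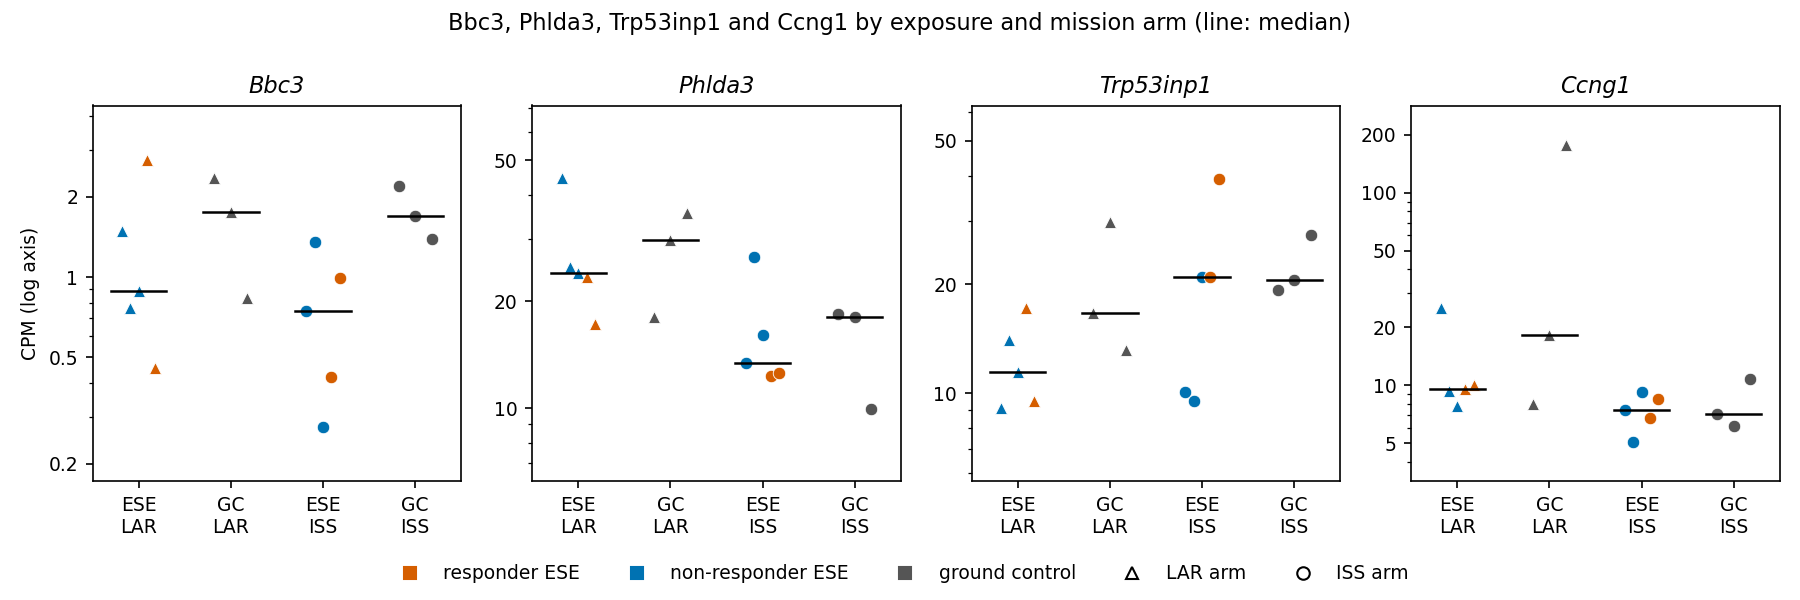
CPM (log axis) of Bbc3, Phlda3, Trp53inp1 and Ccng1 in ESE mice (5 per arm) and ground controls (GC, 3 per arm) of the LAR and ISS arms, 1 point per mouse, with the median as a line. Bbc3 in the ISS arm is the single pair without overlap (at most 1.36 CPM in ESE mice and at least 1.38 CPM in controls).

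The 10 genes did not rise and fall as one across libraries. Over the 16 libraries, which differ in depth and cell makeup, the closest pair was Gadd45a and Sesn2 (Pearson r 0.82 and Spearman rho 0.76 on log2 CPM). Cdkn1a and Mdm2 had r 0.57 (rho 0.59), Trp53 and Cdkn1a r 0.54 (rho 0.42), and Bbc3 and Sesn2 r 0.60 (rho 0.60). The most negative pair was Trp53 and Ccng1 (r -0.64, rho -0.57). Mdm2 and Phlda3 had r -0.49 (rho -0.39). Between Cdkn1a and Ccng1 r was -0.60 but rho -0.24, and Ccng1 was highest, at 178 CPM, in ground control replicate 6.

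A pair of libraries held the extremes of several of these genes. Non-responder replicate 4 and ground control replicate 6 had the lowest Trp53 (13.04 and 14.2 CPM) and the lowest Cdkn1a (42.02 and 44.6 CPM), together with the highest Ccng1 (25.3 and 178 CPM) and the 2 highest Phlda3 values (44.5 and 35.5 CPM). They also had the highest fibroblast marker sums (904 and 731 CPM, against 122 to 323 CPM elsewhere), the highest endothelial sums (527 and 149 CPM, against 7.82 to 138 CPM) and the lowest sums of anagen hair markers (988 and 817 CPM, against 1848 to 160243 CPM). One is an ESE mouse and the other a ground control, both of the LAR arm. The part of these cell types in the levels of the 4 genes was not tested.

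Among marker sums, Cdkn1a went most closely with the anagen hair matrix and sheath (r 0.83, rho 0.79 over 16 libraries) and against the fibroblast sum (r -0.78, rho -0.60). Sesn2 went with the epidermal keratinocyte sum (r 0.78, rho 0.76), and Gadd45a with the share of rRNA reads (r 0.73, rho 0.52). The 4 highest Sesn2 libraries, responder replicates 3 and 2, ground control replicate 4 and non-responder replicate 1, were at 164, 97.1, 108 and 88.3 CPM, with keratinocyte sums of 17410, 12049, 19268 and 20236 CPM. The anagen sum was 988 to 77670 CPM in the ESE group (median 26953) and 817 to 160243 CPM in ground controls (median 7790), and all 10 of its markers had the higher median in ESE mice. The median keratinocyte sum was 7522 CPM in ESE mice, against 13192 CPM in ground controls, and 1 of its 7 measured markers had the higher median in ESE mice. The genes most like Cdkn1a among 13576 others were Tssc1 (r 0.92), B4galnt3 (r 0.88) and Myh14 (r 0.87), and Mdm2 ranked 878th by the same measure.

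**Figure D4:**
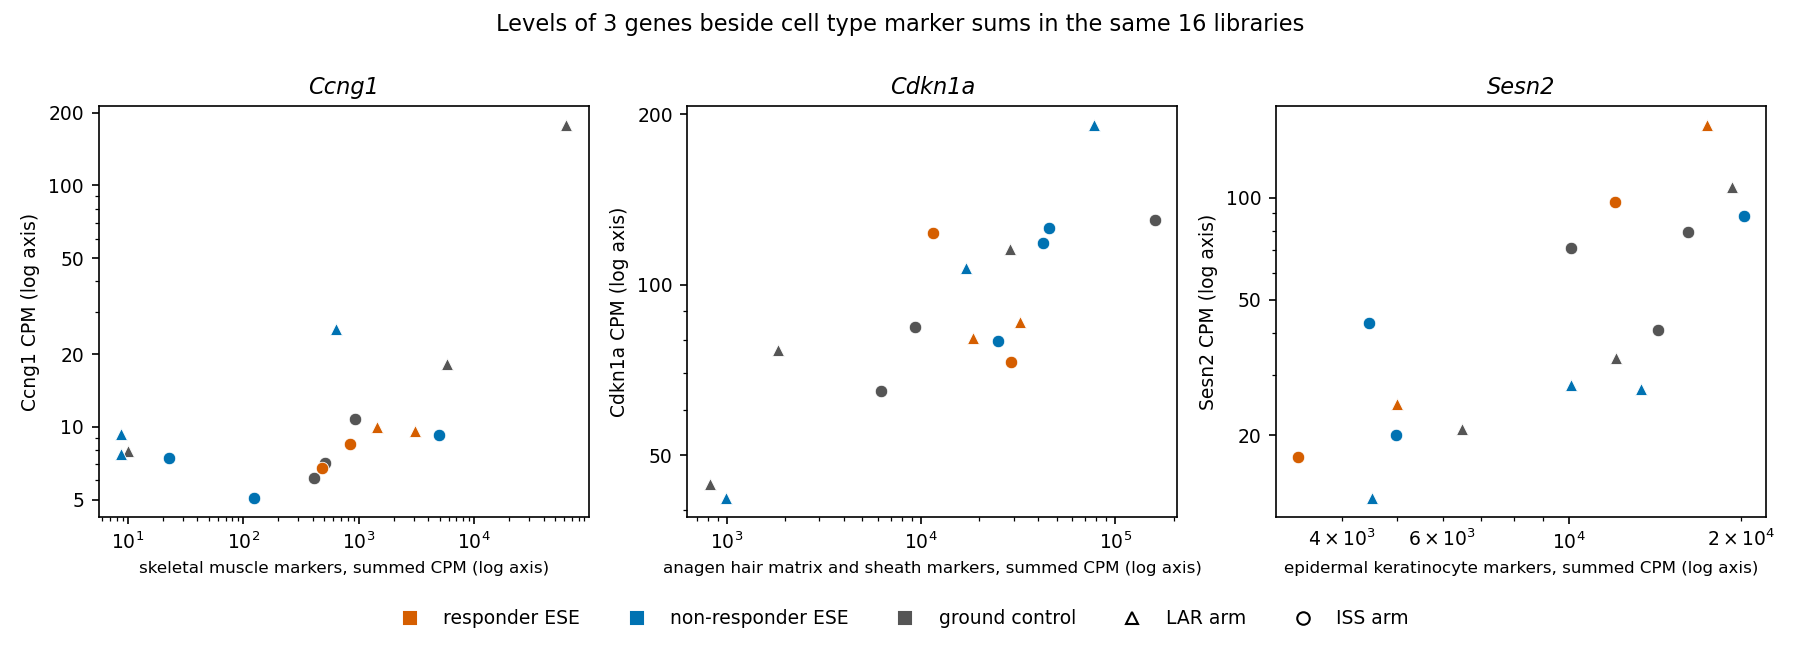
CPM (log axes) of Ccng1, Cdkn1a and Sesn2 against summed markers of skeletal muscle, anagen hair and keratinocytes, 1 point per library (16 in each panel). Ccng1 is high in the single muscle-rich library, and the 2 libraries lowest in Cdkn1a are those lowest in anagen markers, at 988 and 817 CPM.

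The wider p53 pathway was read through 8 more lists, in which 0 genes passed at an adjusted p under 0.05 in the ESE group against ground controls. In the targets of growth arrest, 6 of 11 genes lay above 0 in log2 fold change and the median was 0.29. Btg2, an antiproliferative immediate early gene, was at 5.07, 6.85 and 13.8 CPM in the ESE group and at 6.91, 10.8 and 30.6 CPM in ground controls (log2 fold change -0.68, SE 0.31, adjusted p = 0.624), and Psrc1, a spindle protein, was at 0.74 (adjusted p = 0.624). In the targets of cell death, 6 of 14 were above 0 and the median was -0.01, with Eda2r, a death receptor family member, at -1.05 (adjusted p = 0.624) and Pmaip1 (NOXA, a BH3-only protein) at 0.70 (adjusted p = 0.628). Of 6 targets in DNA repair and nucleotide supply, 1 was above 0, with Polk, a translesion polymerase, at -0.20 and Ddb2, which recognises ultraviolet lesions, at -0.33. Ddb2 shares exon bases with Acp2 on the other strand, so reads of these genes cannot be told apart there. Of 12 targets in metabolism and redox control, 4 were above 0. Gls2, a glutaminase, was at a log2 fold change of 1.24 (SE 0.58, adjusted p = 0.624) and its highest value, 15.6 CPM, in responder replicate 1, the liver-rich library, and it overlaps Spryd4 on the other strand. Sco2, a copper chaperone for cytochrome oxidase, was at -0.85, with low levels of 0 to 4.45 CPM over the 16 libraries. It overlaps Ncaph2 on the other strand and Tymp on the same strand. The other feedback genes included Mdm4, which inhibits p53, at 0.19 and the phosphatase gene Ppm1d at -0.21.

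Upstream of p53, 11 of 14 measured regulators lay above 0 on the log2 fold change scale (median 0.19), and at an unadjusted p under 0.05 3 of them were higher and 1 was lower. Over all genes, 45.4% lay above 0, and at that p 3.06% were higher and 4.8% lower. The 3 higher regulators were Rpl11, Chek2 (log2 fold change 0.85, SE 0.35) and Atr (0.55, SE 0.26), and Rpl5 was lower. Each had an adjusted p of 0.624. The list mixes genes that activate p53 with genes that inhibit it, such as Mdm4, which was also counted among the feedback genes. Its signs therefore have no common meaning for p53. Rpl11 and Rpl5 encode ribosomal proteins that bind Mdm2 when ribosome assembly fails, and they had opposite signs. Rpl5 was at 2.48, 4.14 and 6.70 CPM in the ESE group and at 6.07, 7.12 and 8.86 CPM in ground controls (log2 fold change -0.73, SE 0.21, adjusted p = 0.624). In 9 of 10 ESE mice it lay below the lowest control, and the share of all genes with this pattern was not counted. Rpl11 was at 7.20, 12.3 and 18.0 CPM in the ESE group and at 6.70, 7.80 and 10.5 CPM in ground controls (log2 fold change 0.56, SE 0.21, adjusted p = 0.624). Both have processed pseudogenes, reads that mapped to several places were left out of the counts, and Rpl5 overlaps Fam69a on the other strand, so these levels are uncertain. Of the p53 family, Trp73 was at -0.73 (adjusted p = 0.624) and Trp63, the regulator of stratified epithelium, at -0.13 (adjusted p = 0.850).

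The list with the largest median was that of 14 genes known to be lowered by p53 through p21 and the DREAM complex. All 14 had a positive log2 fold change (median 1.05), where 45.4% of all genes did. Of the 14, 2 were higher at an unadjusted p under 0.05, where 3.06% of all genes were. These were Mcm5, a subunit of the replicative helicase (log2 fold change 1.26, SE 0.48), and Pcna, the sliding clamp (0.80, SE 0.35), both with an adjusted p of 0.624. The summed level of the list was 68.1, 826 and 1901 CPM in the ESE group and 120, 357 and 937 CPM in ground controls, with the lowest and the highest library both in ESE mice. Markers of several cell types had other medians as well, in both directions. The median was higher in ESE mice for all 10 anagen hair, all 6 melanocyte, all 6 endothelial and all 5 measured hepatocyte markers. It was higher for 3 of 6 fibroblast, 3 of 12 skeletal muscle, 1 of 7 measured keratinocyte, 1 of 8 measured immune and 0 of 6 adipocyte markers. None of these markers was at 0 throughout a group. The melanocyte sum was 3.34 to 714 CPM in the ESE group (median 77.3) and 1.47 to 156 CPM in ground controls (median 6.99). Over the 16 libraries the list's sum went with it more closely (r 0.88, rho 0.88) than with the anagen sum (r 0.63, rho 0.58). By r, the list's sum went most against the adipocyte (r -0.60, rho -0.54), fibroblast (r -0.58, rho -0.35) and endothelial sums (r -0.56, rho -0.33). The part of these cell types in the level of the list was not tested. The median log2 fold change of the list was 1.67 in the LAR arm, with 5 genes higher at an unadjusted p under 0.05 (3.39% of all genes), and 0.72 in the ISS arm, with none (1.1%). Between ground controls of the LAR and the ISS arm it was -1.93, with 0 of 14 above 0 and 7 lower at an unadjusted p under 0.05 (2.66% of all genes). Between ESE mice of the LAR and the ISS arm the median was also below 0, at -0.85. There 1 of 14 lay above 0, beside 50.9% of all genes. The list's sum, in which Mki67 and Top2a weigh most (average log2 CPM 8.92 and 6.80), had r 0.36 (rho 0.23) with Cdkn1a over the 16 libraries. With Trp53 it had r 0.57 (rho 0.54). The libraries differ in cell makeup, so these values describe the sum only, and lowering of the list through p21 was not tested.

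**Figure D5:**
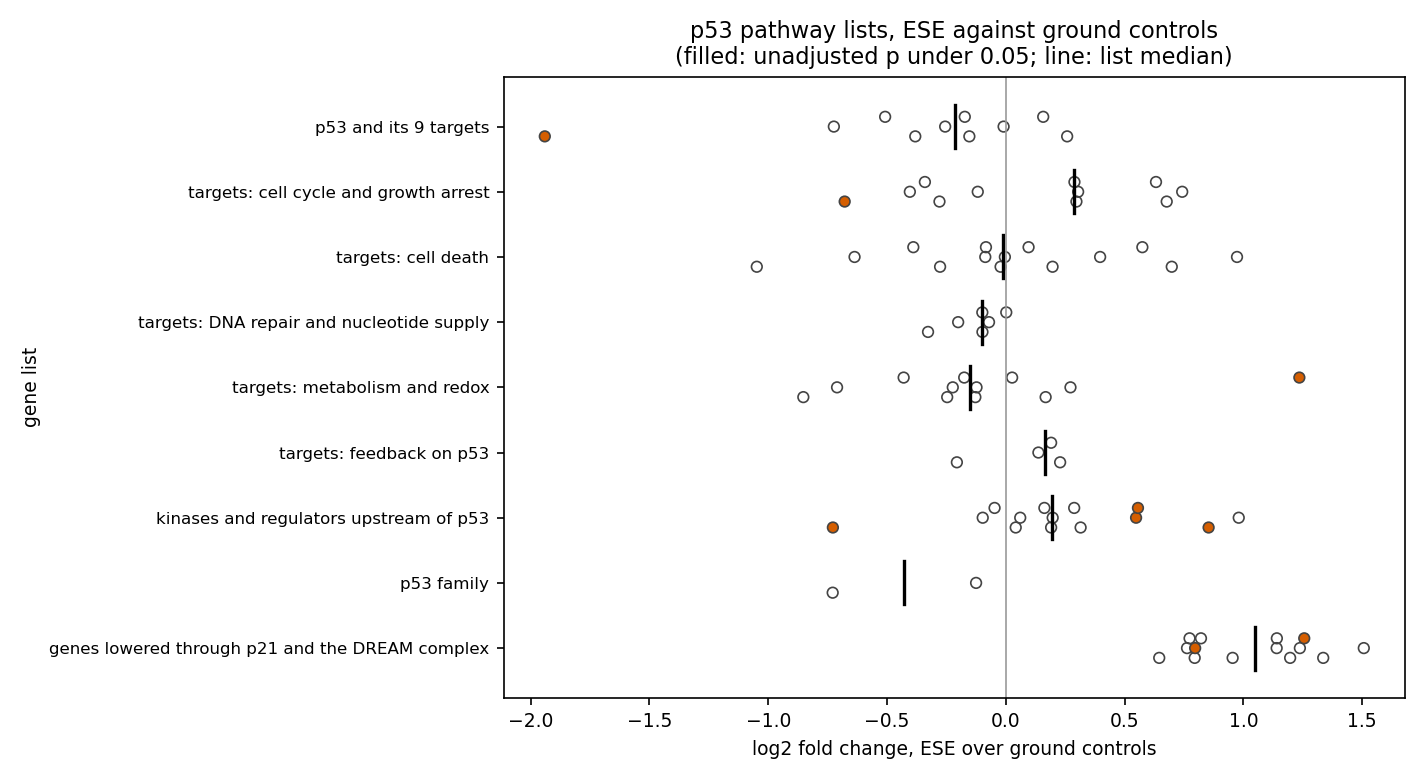
Log2 fold change of each gene in the ESE group over ground controls, by list, with genes at an unadjusted p under 0.05 filled and the list median as a line. The p53 targets lie on both sides of 0, with a median of -0.21 for p53 and its 9 targets, and the genes lowered through p21 lie to the right of 0 (median 1.05).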

How the data were processed

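Total RNA of 16 skin libraries, 1 per mouse, was sequenced after exon capture. The authors aligned reads with STAR to mm10 and counted reads per gene with featureCounts, leaving out multi-mapped reads, and the deposited counts are raw. The strand setting and any removal of duplicates before counting are not given in the sources used here. The authors also deposited log2 FPKM, not used for tests, a RIN score and a DV200 percent per RNA, shares of reads from mapping, and fold changes, p-values and FDR of their own 3 comparisons, which were not used. No deposited column of per-sample values lay outside the 16 libraries.

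Genes were kept by edgeR's filterByExpr, scaled by TMM and tested with quasi-likelihood F tests, robustly estimated (edgeR 4.0.16, limma 3.58.1, R 4.3.3) with Benjamini-Hochberg adjustment over all genes and a threshold of 0.05. ESE mice and ground controls formed 1 fit, the 3 groups another, and exposure with arm the third. SE were derived from each fold change with its F statistic, and intervals from the SE with the total (residual plus prior) degrees of freedom of the test. The script was tested on simulated data with 200 changed genes. CPM used TMM-scaled totals, and correlations used log2 CPM with a prior count of 2. The arm came from the study's sample list, not from the GEO labels. Alternatives were the likelihood ratio test, DESeq2 1.42.0, RLE scaling, no filter, at least 10 counts in every library, arm as a covariate, each library left out in turn, and fits without 3 rRNA-rich or without the muscle-rich and liver-rich libraries. The 36 library pairs within groups were checked for duplicates, and each pair differed beyond sampling noise. Intervals cover 95%. The named genes were the 10 members, from each list the 2 with the smallest p, and list genes past the threshold (0 were). The 3 genes most like Cdkn1a were named as well. Chek2 and Atr were added to complete the upstream regulators at an unadjusted p under 0.05. The members and lists were chosen with earlier results of these data known. Tables were made in Python 3.11.15.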

Additional observations from a re-analysis of the deposited data

Results flagged for a closer look

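In 8 of 40 groups examined (10 genes in the ESE group, each cohort and the ground controls) 1 library stood beyond Dixon's limit from the rest. About 1 in 20 groups would do so if values were normally distributed. The limit was applied to CPM without a log, and each flagged value was the highest of its group, so the 8 cannot be set against that share. The ESE group holds the libraries of both cohorts, so a library can count there and in its cohort. Ccng1 reached 178 CPM in ground control replicate 6, where the nearest control was at 18.3 CPM. Ccng1 was also set apart in non-responder replicate 4, at 25.3 CPM with the next ESE library at 10.0 CPM, in the ESE group and in the non-responder cohort alike. Gadd45a was at 62.9 CPM in non-responder replicate 1, with the next ESE library at 22.6 CPM and the next non-responder at 15.9 CPM. In the ESE group, Bbc3 was at 2.75 CPM in responder replicate 3 (nearest 1.49 CPM), Phlda3 at 44.5 CPM in non-responder replicate 4 (nearest 26.7 CPM) and Trp53inp1 at 39.1 CPM in responder replicate 2 (nearest 20.9 CPM).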

How the results depend on the processing

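No paired analysis was possible because replicate numbers were given in accession order and pair no animals. Members called by adjusted p stayed at 0 of 10 in every comparison and alternative run, except that DESeq2 called 1 (Ccng1) in LAR against ISS ground controls. DESeq2 gave no p for Ccng1 in the ESE group or in responders against ground controls, and Bbc3 was not tested at 10 counts in every library. Log2 fold changes in the ESE group that crossed 0 without the 3 rRNA-rich libraries were those of Trp53 (-0.0057), Mdm2 (0.31), Bax (0.068), Sesn2 (0.14) and Ppm1d (0.030). Phlda3, at -0.01, was 0.012 with RLE size factors, 0.012 with DESeq2, 0.0034 with arm as a covariate and 0.29 without the muscle-rich and liver-rich libraries. Without those 2 libraries Ccng1 was 0.069 in the ESE group and 0.10 in non-responders against ground controls, and Cdkn1a was -0.18 for the difference between the arms' effects and 0.046 in LAR against ISS ground controls. Cdkn1a in LAR against ISS ESE mice was 0.020 without the 3 rRNA-rich libraries. The cause of these moves was not tested.

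With each library left out in turn, log2 fold changes in the ESE group ranged from -0.36 to 0.10 for Mdm2, -0.99 to 0.044 for Gadd45a, -0.57 to 0.087 for Sesn2 and -0.16 to 0.19 for Phlda3. Cdkn1a ranged from -0.10 to 0.24 in responders against ground controls, -0.041 to 0.48 in ISS mice, -0.16 to 0.58 for the difference between the arms' effects, -0.40 to 0.15 in LAR against ISS ESE mice and -0.62 to 0.071 in LAR against ISS ground controls. Ccng1 ranged from -2.24 to 0.10 in non-responders against ground controls and from -2.88 to 0.0071 for the difference between the arms' effects. Genes called in responders against ground controls ranged from 0 to 1.

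Over all genes, DESeq2 called 3 in the ESE group, 20 in responders and 3 in non-responders against ground controls, 5 between the cohorts, 113 in the LAR arm, 94 in LAR against ISS ESE mice and 100 in LAR against ISS ground controls. The likelihood ratio test called 13, 21, 70, 55 and 15 in the ESE group, responders against ground controls, the LAR arm, LAR against ISS ESE mice and LAR against ISS ground controls. Responders against ground controls gave 0 without a filter, with 10 counts in every library, with arm as a covariate, without the rRNA-rich and without the muscle-rich and liver-rich libraries, and these last gave 1 between the cohorts. Low counts limit Bbc3 most, at 2 to 37 per library.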
